A study of Homo sapiens with 4 samples.

Results

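The genes described here are the 7 ZFAND zinc finger genes together with UBB, a polyubiquitin gene, and VCP, the ATPase that extracts ubiquitin-tagged proteins. They were chosen by symbol, with the difference between the 2 groups of libraries in view, so all 9 differences below are descriptions and none is a test of the choice. The 9 symbols matched 9 of the 57820 rows of the deposited table, 1 row each, and all 9 passed the filter on low counts. The values come from U87 cells, an established human glioma line, carrying a hairpin against GLUD1 (shGlud1) or a control hairpin (shNT), with 2 libraries of each. Every culture had been in low glucose for 6 h, controls included, and libraries from full glucose were not analysed here. The labels name no second hairpin and no clone, and do not say that replicate libraries were grown as separate cultures, so errors and p-values speak for library-to-library spread alone, and that spread may be technical.

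ZFAND proteins carry zinc fingers of the AN1 type, and some also an A20 finger that binds ubiquitin. They work where ubiquitin-tagged proteins are handed to VCP and the proteasome. ZFAND2A (also called AIRAP) is induced by arsenite and heat and associates with the proteasome, while its relative ZFAND2B (AIRAPL) is made without stress and sits at the endoplasmic reticulum. ZFAND1 brings VCP and the proteasome to stress granules, and ZFAND5 (ZNF216) binds ubiquitin and stimulates the proteasome. UBB encodes head-to-tail ubiquitin units that are cut into free ubiquitin, and it is induced by heat and other stress.

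Promoter sequences are shown for the pair of ZFAND2 relatives, of which one differed far more between the groups, and for UBB, the other large difference. They are RefSeq sequences (GRCh38.p14) of the bases just before a start annotated in RefSeq, 5′ to 3′ on the gene's strand. The stretches are chr7:1160197-1160446 (minus strand) for ZFAND2A, chr2:219206532-219206781 (plus strand) for ZFAND2B and chr17:16381185-16381289 (plus strand) for UBB. Each stretch lies inside the span that GENCODE gives its gene, before a start further in. That span begins at base 1160759 for ZFAND2A (minus strand), 219195237 for ZFAND2B and 16380798 for UBB. The bases before these outermost starts are not shown. Capitals mark matches to the motifs searched.
ZFAND2A: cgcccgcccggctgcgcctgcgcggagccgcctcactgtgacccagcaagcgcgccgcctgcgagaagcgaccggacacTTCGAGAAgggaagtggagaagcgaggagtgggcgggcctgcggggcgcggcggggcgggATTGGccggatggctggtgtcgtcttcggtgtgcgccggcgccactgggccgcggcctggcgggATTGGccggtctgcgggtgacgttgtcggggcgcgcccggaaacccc
ZFAND2B: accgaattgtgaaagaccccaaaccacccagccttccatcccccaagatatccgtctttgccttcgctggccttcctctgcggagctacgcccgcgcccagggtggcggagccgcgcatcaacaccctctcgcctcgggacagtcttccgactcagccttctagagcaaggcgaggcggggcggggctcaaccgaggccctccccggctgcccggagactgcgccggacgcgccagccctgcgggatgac
UBB: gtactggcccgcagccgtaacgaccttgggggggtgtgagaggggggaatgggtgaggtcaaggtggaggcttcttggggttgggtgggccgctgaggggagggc

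The motifs, searched on both strands, were the heat shock element of 2 units (GAANNTTC or TTCNNGAA), the same element with 3 alternating units, CCAAT, the TATA box as TATAAA, and the ATF4 site as TGATGNAAN. Every match of the 3-unit element also holds the 2-unit one. RefSeq windows reaching from 250 bases before to 50 bases after a start were at hand for 8 of the 9 genes, 17 windows in all. ZFAND1 had no window and was not searched. The ZFAND2A window held 1 heat shock element of 2 units, TTCGAGAA, beginning 171 bases before the start, and 2 CCAAT matches at 111 and 47 bases before it. It was the 1 window of the 17 with a 2-unit element, and no window held the 3-unit one. Among all 35116 promoter windows 13.5% held the 2-unit element and 0.49% the 3-unit one. The ZFAND2B and ZFAND3 windows held none of the motifs, 1 ZFAND6 window held 2 TATAAA matches, and no window held the ATF4 site. The VCP window held 5 CCAAT matches, and each UBB window held 1, which lies upstream of the stretch printed above. CCAAT was in 34.6% of all windows, TATAAA in 11.5% and the ATF4 site in 3.61%. A match is only a match of letters, and a window without one says nothing about the factor or about other starts of the gene. For ZFAND2A, ZFAND2B and UBB the bases before the outermost GENCODE start were not searched. The lack of a heat shock element in the UBB windows therefore does not cover that region.

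**Figure D1:**
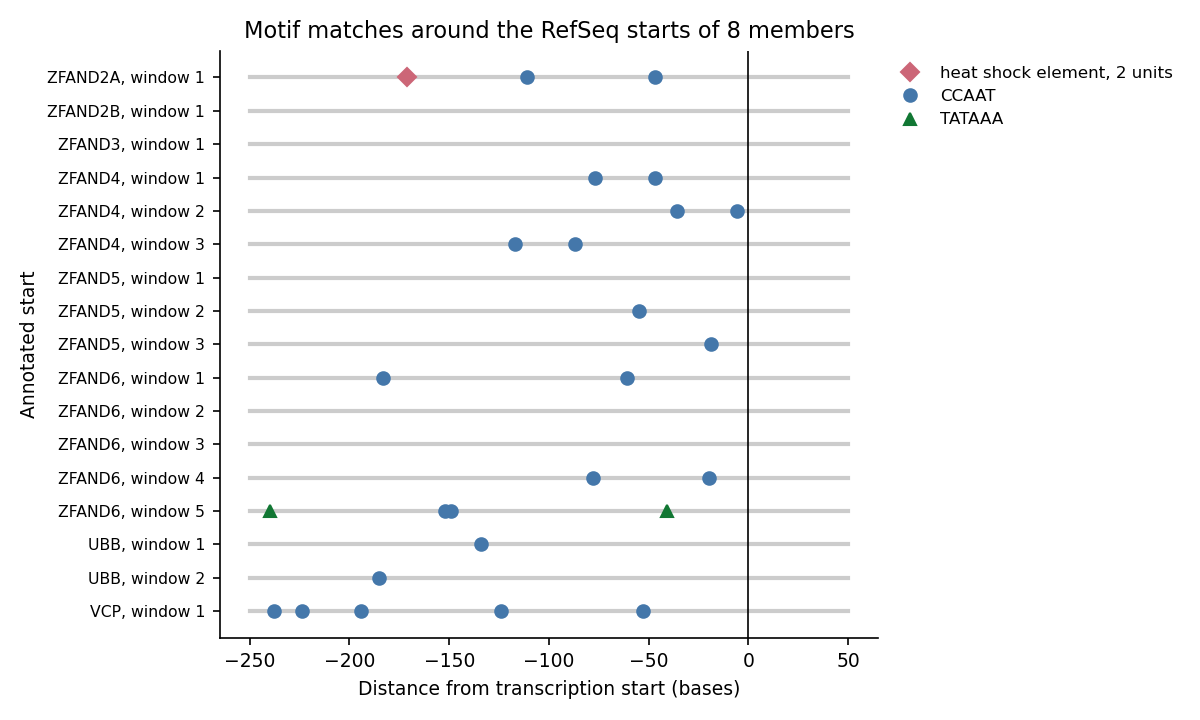
Motif matches in the 17 RefSeq promoter windows of 8 genes, with distance from the annotated start in bases on the x axis and 1 line per window; overlapping windows of a gene show the same matches shifted. The single heat shock element of 2 units (diamond) is in the ZFAND2A window, and VCP has 5 CCAAT matches (circles).

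The proteins translated from the longest GENCODE 29 coding sequences sort the family by its fingers. With an AN1 pattern that allows 2 to 4 residues in its first gap, widened after a stricter one missed them, ZFAND1, ZFAND2A and ZFAND2B each had 2 AN1 fingers. ZFAND4, ZFAND5 and ZFAND6 had 1 each, and ZFAND5 and ZFAND6 also had 1 A20 finger. The ZFAND3 protein, of 227 residues, matched neither pattern, which says only that its letters do not meet these spacings. ZFAND5 and ZFAND6 were the closest pair, with 61.1% of the shorter protein identical, followed by ZFAND2A and ZFAND2B with 54.4%. The UBB protein of 229 residues held 3 copies of the 76-residue ubiquitin unit.

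The depth was 16546849 and 18118503 expected counts for shNT, and 17407149 and 18537314 for shGlud1. The targeted gene, GLUD1, was at 78.0 and 76.4 CPM (counts scaled to a common library size with TMM factors) for shNT and at 34.0 and 44.5 CPM for shGlud1. Its log2 fold change was -0.98 (standard error 0.13). The size depended on the scaling, with -0.45 by total counts and -1.21 with length and GC trends removed. Differences between the groups were wide. In edgeR's quasi-likelihood test 8919 of 14616 genes had a Benjamini-Hochberg adjusted p under 0.05 and are named called here, which is 61%. Of 6 genes typical of mesenchymal glioma lines, the summed level was 4155 and 3842 CPM in shNT and 6447 and 6989 CPM in shGlud1. VIM, at a mean of 2350 CPM in shNT and 4670.0 CPM in shGlud1, made up most of that difference. NES, SPARC and FN1 were also called higher, while CD44 (724 and 768 CPM, log2 fold change 0.086) and TNC (476 and 580 CPM, 0.29) were not called. Of 8 markers of other cell types, 7 were in the table, with a summed level of 7.44 to 11.9 CPM over the 4 libraries, and members of that list moved in opposite directions. MBP, an oligodendrocyte gene, was called higher, at 4.83 and 3.79 CPM in shNT and 8.16 and 10.13 CPM in shGlud1. The neuronal gene RBFOX3 was too (0.22 and 0.261 against 0.799 and 0.91 CPM), on only 3 and 4 counts against 16 and 21. With DESeq2, and with a trend on transcript length removed, 1 gene of the list was called higher instead of 2. CD14, a monocyte gene, was called lower, at 2.85 and 2.74 CPM in shNT and 0.0499 and 0.52 CPM in shGlud1. PTPRC, ALB, OLIG2 and EPCAM were at 0.522 CPM or less. What part these markers have in the differences below was not tested. Across genes the fold change followed transcript length (Spearman correlation 0.447 over 14266 genes, which are not independent). Fold changes are therefore also given with this trend removed. With it removed, 4 of the 6 glioma line genes were called higher and 2 lower (median 0.31, against 0.72). With length and GC trends removed, 2 of them were called higher and 1 lower (median 0.12). Each fold change is the log2 of shGlud1 divided by shNT, given with a standard error (SE).

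Of the 9 genes, 4 were called lower (29.1% of all genes tested were), 2 were called higher (31.9% of all genes) and 3 were not called. ZFAND2A, UBB, ZFAND1 and ZFAND2B were lower in the shGlud1 libraries, ZFAND5 and VCP were higher, and ZFAND3, ZFAND4 and ZFAND6 were not called. The groups did not overlap for 6 of the 9, against 81% of all genes tested. The median log2 fold change was -0.15 over the 9 genes and 0.056 over all genes tested, and by total counts 0.35 and 0.57. The contrast was used in choosing these genes, so nothing is read from these counts. Scaled by total counts alone, 79.1% of called genes were higher, against 52.3% with TMM factors. In bulk RNA, fewer cells with a transcript and less of it per cell cannot be told apart.

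**Figure D2:**
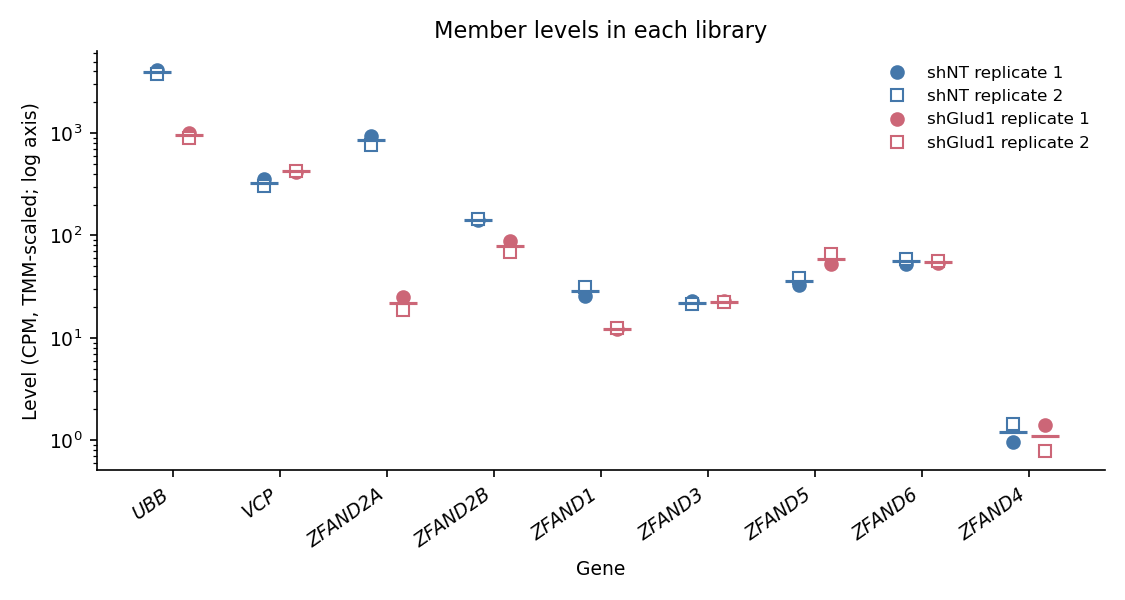
Level of each gene in each library, in CPM scaled with TMM factors on a log axis; points are libraries, and bars are group means (n = 2). The shGlud1 points of ZFAND2A, at 25.1 and 18.9 CPM, lie far below its shNT points at 933 and 772 CPM, while those of ZFAND3 and ZFAND6 fall within or between the control points.

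ZFAND2A (ENSG00000178381, GRCh38 chromosome 7, 1152071 to 1160759, minus strand) showed the widest difference of the 9 genes. Its expected counts were 12744 and 11828 for shNT, against 503 and 436 for shGlud1. In CPM these were 933 and 772 against 25.1 and 18.9. The 2 groups were far apart, and the shGlud1 libraries differed from each other by 0.41 on the log2 scale, the shNT libraries by 0.27. The mean was 852 ± 113 CPM (SD, n = 2) in shNT and 22.003 ± 4.39 CPM in shGlud1, 38.7-fold lower, with a log2 fold change of -5.28 (SE 0.18). Of the 14616 genes tested, 29 had a more negative fold change. Per transcript length, ZFAND2A ranked 145th in abundance among genes with a known length in shNT and 2611th in shGlud1. Its fold change lay between -5.51 (without shGlud1 replicate 1) and -4.68 (length trend removed) over 15 alternative analyses, and it was called lower in all 15.

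ZFAND2A shares 111 exonic bases, 4.87% of its own, with an antisense gene (ENSG00000229043), and the library kit did not mark strand. Counts of that gene were 114 and 125 for shNT and 56 and 54 for shGlud1. They were few beside the 12744 and 11828 of ZFAND2A in shNT, and less so beside its 503 and 436 in shGlud1. The antisense gene was itself called lower (log2 fold change -1.69, SE 0.26). How reads were divided between them cannot be told from the table.

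The ZFAND2A transcript made up most of the ZFAND counts in the control cells and little of them after the knockdown. It held 77.2% and 72.3% of the summed counts of the 7 ZFAND genes in the shNT libraries. In the shGlud1 libraries it held 9.84% and 7.67%. There ZFAND2B (34.3% and 28.2%), ZFAND5 (20.7% and 26.8%) and ZFAND6 (20.9% and 22.9%) held the larger shares. These shares do not depend on how libraries were scaled, but they are of counts, so longer transcripts weigh more.

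**Figure D3:**
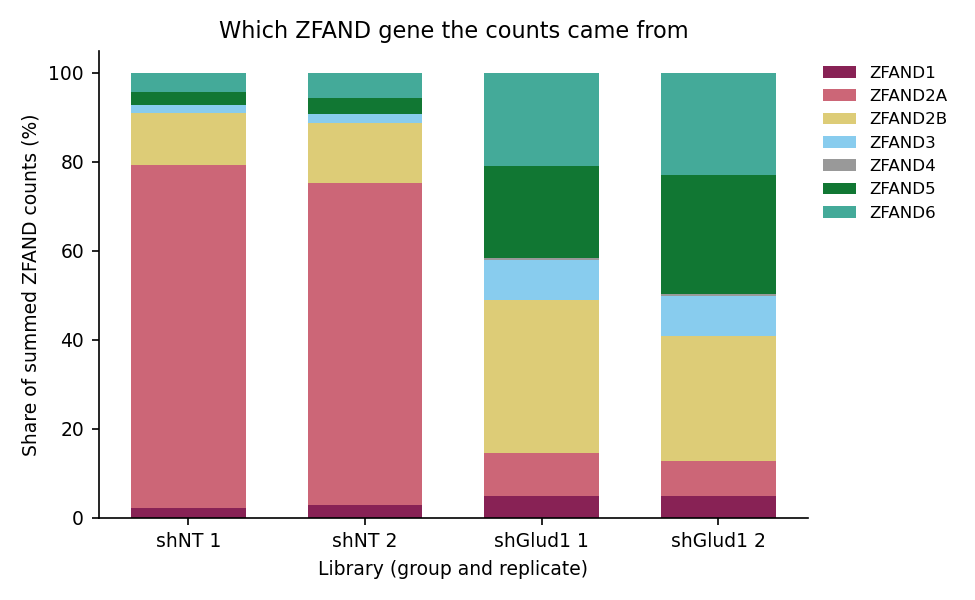
Share of the summed counts of the 7 ZFAND genes that came from each gene, in percent, for each of the 4 libraries. ZFAND2A fills 77.2% and 72.3% of the shNT bars, against 9.84% and 7.67% of the shGlud1 bars.

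The other pair of genes with 2 AN1 fingers were also lower, by much less. ZFAND1, the stress granule partner of VCP, was at 25.9 and 31.7 CPM in shNT and at 12.28 and 12.4 CPM in shGlud1 (log2 fold change -1.23, SE 0.16). The shGlud1 libraries were nearly equal and lay well below both controls. ZFAND2B, the endoplasmic reticulum relative of ZFAND2A, was at 140.4 and 144 CPM in shNT and at 87.7 and 69.35 CPM in shGlud1 (-0.86, SE 0.13). Here the controls were nearly equal and the shGlud1 libraries were 0.34 apart on the log2 scale. Both genes kept their call in all 15 alternatives, although by total counts ZFAND2B was at -0.34 and ZFAND1 at -0.71. With length and GC trends removed they were at -0.42 and -0.80.

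ZFAND5 was the 1 ZFAND gene that was called higher. It was at 33.004 and 38.6 CPM in shNT and at 52.8 and 66.1 CPM in shGlud1, so both shGlud1 libraries lay above both controls (log2 fold change 0.73, SE 0.13). Its longest transcript, at 5310 bases, is the longest of the 9 genes. With the length trend removed the fold change was 0.33, still called, and with length and GC trends removed it was 0.23 and no longer called. By total counts it was 1.25.

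ZFAND6, which like ZFAND5 has an A20 and an AN1 finger, was at 52.8 and 59.0 CPM in shNT and at 53.3 and 56.4 CPM in shGlud1. The shGlud1 values lay between those of the controls (-0.028, SE 0.13), and by total counts it was called higher at 0.49. ZFAND3, a nuclear regulator linked to glioblastoma invasion, was at 22.8 and 21.3 CPM in shNT and 22.7 and 22.4 CPM in shGlud1. Its shGlud1 values too lay between its controls (0.034, SE 0.16), and it was called higher by total counts alone (0.55). ZFAND4, which joins a ubiquitin-like domain to an AN1 finger, was barely detected, with 13 and 22 counts in shNT and 28 and 18 in shGlud1. With a fold change of -0.15 and a standard error of 0.49, no difference was detectable at this depth.

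**Figure D4:**
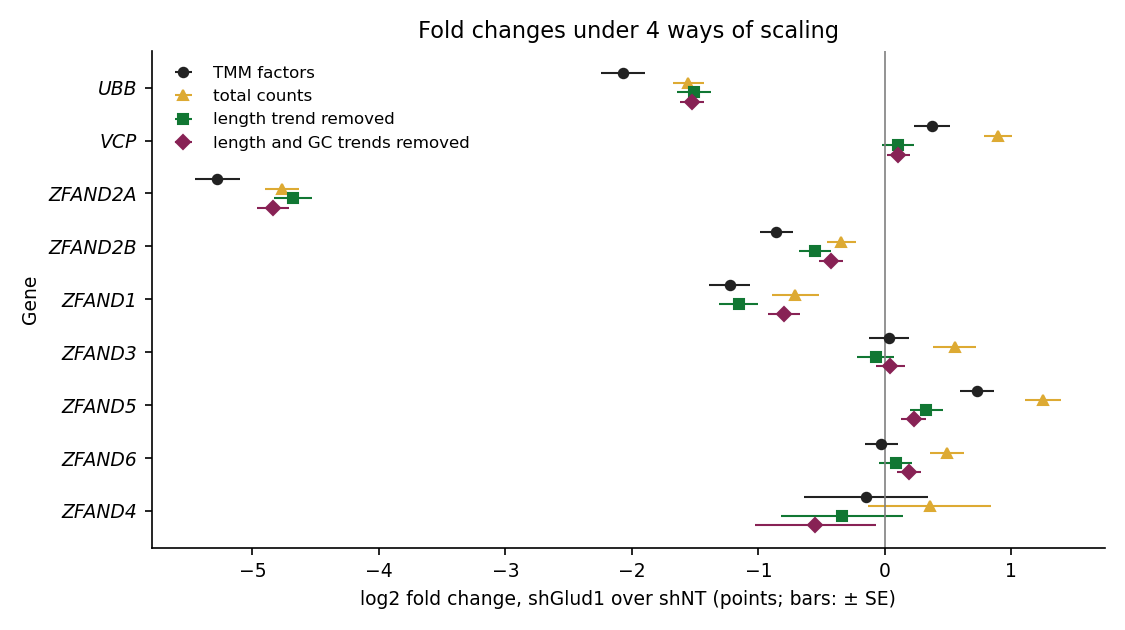
Log2 fold change of each gene, shGlud1 over shNT, with its standard error, under TMM factors, total counts, removal of the transcript length trend, and removal of length and GC trends. ZFAND2A, UBB, ZFAND1 and ZFAND2B stay below 0 in all 4, while ZFAND3, ZFAND4 and ZFAND6 cross 0 and VCP moves between 0.10 and 0.89.

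UBB (ENSG00000170315, GRCh38 chromosome 17, 16380798 to 16382745, plus strand) was the most abundant of the 9 genes. Its level was 4148 and 3806 CPM for shNT, against 999.9 and 895 CPM for shGlud1. Libraries of a group lay close together and the groups were far apart. The means were 3977 ± 242 CPM and 947 ± 74.2 CPM (SD, n = 2), a 4.198-fold lower level with a log2 fold change of -2.07 (SE 0.17). It lay between -2.17 and -1.51 over the 15 alternatives, with a call in each, and was at -1.51 with the length trend removed. Per transcript length UBB ranked 17th in shNT and 72nd in shGlud1 among genes with a known length. Its reads are less certain than those of the ZFAND genes. An antisense gene (ENSG00000265401) shares 28.4% of its exonic bases and went from 59.5 and 48.1 CPM to 12.6 and 12.6 CPM. The near-identical pseudogene UBBP4 went from 3.06 and 3.36 CPM to 0.742 and 0.683 CPM.

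RPS27A, which fuses 1 ubiquitin unit to a ribosomal protein, was lower as well. It was at 2439 and 2663 CPM in shNT and at 1027 and 806 CPM in shGlud1, so the groups did not overlap (log2 fold change -1.48, SE 0.17; edgeR adjusted p = 1.03e-17). By total counts it was at -0.96 and with the length trend removed at -0.90, called lower in both. Reads from the ubiquitin units of UBB may have been shared with other genes that hold such units, and the counting program is not given in the sources used here.

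VCP (ENSG00000165280, GRCh38 chromosome 9, 35056064 to 35073249, minus strand), the unfolding ATPase that works with ZFAND1 and with many cofactors, was slightly higher. It was at 353 and 303 CPM in shNT and at 421 and 427 CPM in shGlud1. The groups did not overlap, but the control libraries were 0.22 apart on the log2 scale beside a fold change of 0.37 (SE 0.14). This call was lost with the length trend removed (0.10), with length and GC trends removed (0.11), with RLE factors (0.32), without shNT replicate 1 (0.49) and without shNT replicate 2 (0.26). By total counts VCP was at 0.89.

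Per transcript length the order of the 9 genes changed mainly through ZFAND2A. Levels in RPKM (CPM per kilobase of the longest transcript) ran in shNT from UBB at 3246 ± 198 and ZFAND2A at 786 ± 104.65 (SD, n = 2) through VCP at 75.1 and ZFAND2B at 70.3. They went on with ZFAND6 at 21.6, ZFAND1 at 10.6, ZFAND5 at 6.75, ZFAND3 at 6.55 and ZFAND4 at 0.312. The ranges of VCP and ZFAND2B overlapped, as did those of ZFAND5 and ZFAND3. In shGlud1 the order was UBB at 773 ± 60.6, VCP at 97.1, ZFAND2B at 38.8, ZFAND6 at 21.1 and ZFAND2A at 20.3, and the last pair overlapped. Below them stood ZFAND5 at 11.2, ZFAND3 at 6.70, ZFAND1 at 4.53 and ZFAND4 at 0.285. ZFAND1 was thus above ZFAND5 and ZFAND3 in shNT and below both in shGlud1.

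The genes whose profiles were nearest to ZFAND2A over the 4 libraries were RN7SK, FOS, HSPA1A, HSPA1B and CRYAB, at distances of 0.45 to 0.82 on the log2 scale among 9837 genes. HSPA1A and HSPA1B encode stress-inducible HSP70 and are near-identical copies, CRYAB encodes a small heat shock protein, FOS is an immediate-early gene, and RN7SK is a short RNA without a poly-A tail. HSPA1B was at 4031 and 3427 CPM in shNT and at 157 and 154 CPM in shGlud1. Nearest to UBB were RBM3, DEDD2, KRT7, DNLZ and C17orf76-AS1, at distances of 0.045 to 0.12. RBM3, which encodes a cold-inducible RNA-binding protein, was at 504 and 446 CPM in shNT and at 118 and 108 CPM in shGlud1. With 2 groups of 2 libraries this likeness is mostly one of fold size.

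Of 108 genes tested in 9 lists around ubiquitin, VCP and the ZFAND proteins, 41 were called higher and 35 lower, with a median log2 fold change of 0.0068. By total counts 65 were higher and 19 lower. Of all 14616 genes tested 31.9% were called higher and 29.1% lower, and by total counts 7592 were higher among 9592 called. The same background holds for the counts of each list below. The 26 VCP cofactors tested had 11 called higher and 11 lower (median -0.020). UBXN7 and UBXN4, adaptors with a UBX domain, rose by 1.72 and 1.11. VIMP (selenoprotein S) and DERL2, membrane partners of VCP in degradation at the endoplasmic reticulum, fell by 1.56 and 1.45 on the log2 scale. With the length trend removed 7 cofactors were higher and 13 lower (median -0.34), and by total counts 14 were higher and 5 lower (median 0.501).

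Of the ubiquitin activation and conjugation enzymes 12 of 32 were called higher and 8 lower (median 0.0068). By total counts 21 were higher and 3 lower (median 0.53), and with the length trend removed 8 were higher and 12 lower (median -0.046), so the balance turned with the scaling. UBE2H and UBE2V1 rose by 0.87 and 0.84, and UBE2Z and CDC34 fell by 1.08 and 0.85 on the log2 scale, CDC34 only by 0.052 and uncalled with length and GC trends removed. Deubiquitinases that recycle ubiquitin had 3 of 8 higher, among them USP7 (1.18) and the proteasome-bound USP14 (0.98), and 3 lower, among them OTUB1 (-1.18) and UCHL3 (-0.59). UCHL3 was not called by total counts or with either trend removed, and by total counts 4 of the list were higher and 1 lower (median 0.35, against -0.17). Among 11 ubiquitin shuttles and receptors 4 were higher, with RAD23B at 1.10 and NBR1 at 1.17, and 2 were lower (median 0.18). By total counts 9 were higher and 2 lower (median 0.69), and with the length trend removed 4 were higher and 3 lower (median 0.025). The receptor SQSTM1, also called p62, was at 4213 ± 6.74 CPM for shNT and fell to 1537 ± 42.7 CPM (log2 fold change -1.45, SE 0.17; edgeR adjusted p = 4.81e-16), and TOLLIP fell by 1.08.

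Genes of the BAG6 and SEC61 machinery, which handles membrane proteins at and before the endoplasmic reticulum, had 6 of 8 called lower and 0 higher (median -0.75). Of all genes tested 29.1% were called lower and 31.9% higher. SEC61G fell from 299 ± 13.002 CPM to 99.4 ± 15.4 CPM (-1.59, SE 0.14) and SEC61B by 1.29. By total counts 4 of the 8 were lower and 2 higher (median -0.23). Transcripts of this list are short, with a median of 2356 bases. With the length trend removed 7 were lower and 0 higher (median -0.62), and with length and GC trends removed 6 and 0 (median -0.49). Stress granule genes had 9 of 12 called higher and 0 lower (median 0.59), opposite in direction to ZFAND1. PABPC1, the poly-A binding protein gene, rose from 142 ± 0.592 CPM to 309.99 ± 15.5 CPM (1.13, SE 0.14) and USP10 by 1.30. These transcripts are long, with a median of 4674.5 bases against 3374.5 for all genes tested. With the length trend removed 4 were higher and 1 lower (median 0.12), and by total counts all 12 were higher (median 1.11).

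Of the heat shock factor genes, HSF1 fell by 0.40 on the log2 scale (SE 0.13), from 162 ± 8.63 CPM to 123 ± 18.3 CPM. That call was lost without shNT replicate 2 (-0.34), without shGlud1 replicate 2 (-0.25) and with length and GC trends removed (-0.21), and by total counts HSF1 was at 0.12. HSF2 rose by 0.96 from a low level of 6.79 ± 0.184 CPM, HSBP1, which encodes a factor-binding protein, fell by 1.21, and HSF4 was not called (-0.17). Among other A20 and AN1 finger genes OTUD7B rose by 0.56, and TNFAIP3 (0.34), RABGEF1 (-0.19) and IGHMBP2 (-0.31) were not called. With the length trend removed RABGEF1 (-0.45) and IGHMBP2 (-0.52) were called lower, and by total counts TNFAIP3 was called higher (0.86). OTUD7A had too few counts to be tested.

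**Figure D5:**
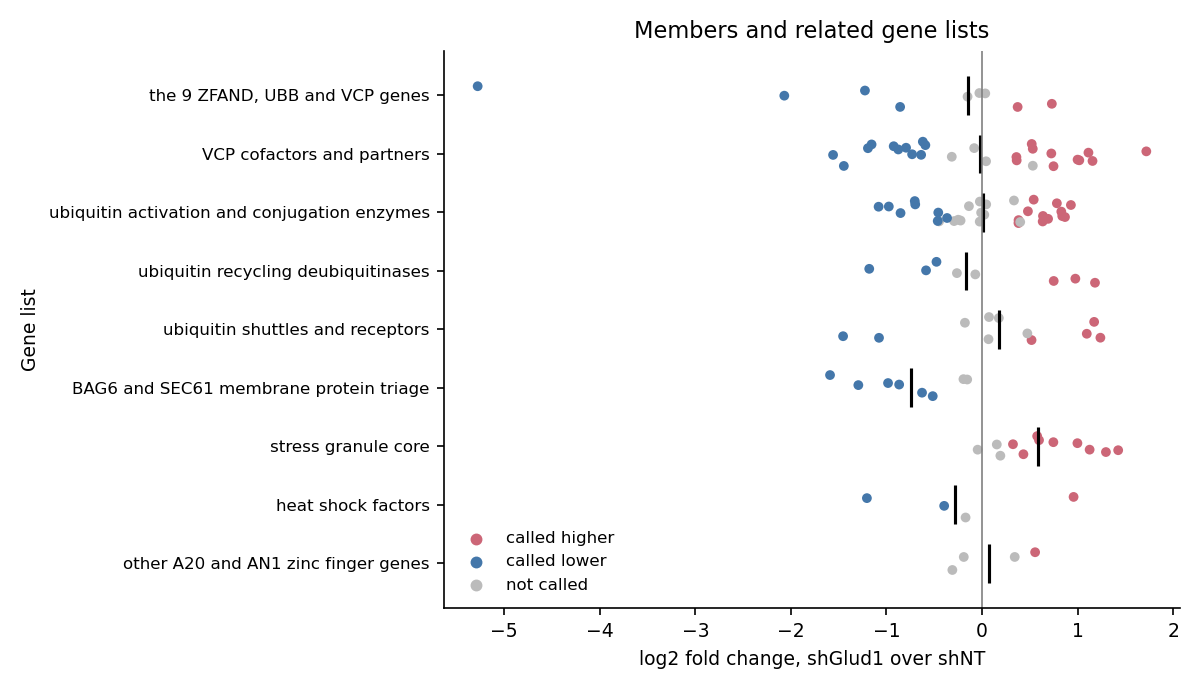
Log2 fold change, shGlud1 over shNT, of the 9 genes and of the genes tested in 8 related lists; each point is a gene, coloured by its call in edgeR's quasi-likelihood test, and black bars are medians. The stress granule genes lie mostly above 0 (median 0.59), the VCP cofactors are divided 11 to 11, and ZFAND2A at -5.28 lies far outside every other list.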

How the data were processed

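RNA-seq of poly-A RNA from 4 libraries of U87 cells was used, 2 per group. The authors deposited expected counts, which are estimates: 20.1% of values above 0 were not whole numbers. Bowtie 0.12.2 and the mouse build mm8 are named in the submitters' processing notes, although all 57820 rows carry human gene IDs, so the build is uncertain. Not given in the sources used here were the counting program and the annotation. All 57820 rows named a gene.

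Counts were rounded and compared in edgeR 4.0.16 (R 4.3.3) after filterByExpr (minimum count 10), with TMM factors, robust quasi-likelihood fitting and no block for replicate number. Benjamini-Hochberg adjustment was over all 14616 genes tested, with a threshold of 0.05. CPM and RPKM were computed here from the deposited counts. The SE was taken as the size of the log2 fold change over the root of its F statistic. The fit was also run on counts simulated from its own means, dispersions and TMM factors, with known changes. Such a run checks the code and cannot judge how the libraries should be scaled. Lengths, GC, positions and coding sequences came from GENCODE 29 (GRCh38), and 97.6% of tested genes had a length. Trends on length were removed with lowess (span 0.3) per library.

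The 9 genes and the lists were chosen with earlier results of these data known. The lists were written from general knowledge. Genes named were the 9, GLUD1, up to 2 that rose and 2 that fell by lowest p in each list, all genes of lists of 5 or fewer, and for ZFAND2A and UBB the 5 nearest profiles (Euclidean distance of centred log2 CPM, pseudocount 0.5, mean of at least 5 CPM). The AN1 pattern tried first, with a first gap of exactly 2 residues, found a finger in ZFAND4, ZFAND5 and ZFAND6 only. It was widened after that. Some genes of the lists, which the counts over all lists include, are not reported here. Alternatives were DESeq2 1.42.0, limma-voom (limma 3.58.1), RLE and upper-quartile factors, total counts, other filters, the replicate block, leaving out each library, and trends removed on longest length, length and GC and, added after seeing the data, median length.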

Additional observations from a re-analysis of the deposited data

How the results depend on the processing

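The calls of ZFAND2A, UBB, ZFAND1 and ZFAND2B as lower held in all 15 alternatives. The count of the 9 genes called higher moved most. It was 2 in the analysis reported, 4 by total counts, 1 with RLE factors, 1 with the length trend removed and 0 with length and GC trends removed. Leaving out 1 library at a time it was 1 to 2. The number of related genes called higher, 41, was 65 by total counts and 27 with the length trend removed, and the number called lower, 35, was 19 by total counts. Signs turned for fold changes near 0. ZFAND3 was at -0.021 with DESeq2 and with RLE factors, at -0.073 with the length trend removed, and from -0.015 to 0.079 with 1 library left out. ZFAND4 was at 0.35 by total counts and from -0.63 to 0.22 with 1 library left out, at 0.18 without shNT replicate 2. ZFAND6 was at 0.49 by total counts, 0.021 with no filter, 0.085, 0.19 and 0.045 with the trends on length, length and GC, and median length removed, and from -0.11 to 0.052 with 1 library left out. By total counts HSF1 was at 0.12, HSF4 at 0.34, RABGEF1 at 0.33 and IGHMBP2 at 0.21. With the length trend removed UCHL3 was at 0.032 and HSF4 at 0.19, and with length and GC trends removed HSF4 was at 0.48 and TNFAIP3 at -0.071. The causes were not tested. Over all alternatives and the single genes followed, 576 values kept direction and call, 12 lost a call, 6 gained one and 21 turned sign.

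With the replicate block 9046 genes were called, against 8919 without it. Same-numbered libraries deviated together only weakly (correlation 0.107 over 9842 genes), and with 2 pairs the numbers were not taken to pair the samples. The block changed no call among the 9 genes.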
